A study of Homo sapiens with 10 samples.

Results

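The genes described here are 10 genes of intermediate filament proteins: the type II keratins KRT7, KRT8 and KRT80, the type I keratins KRT10, KRT17, KRT18 and KRT19, and the non-keratin filament proteins vimentin (VIM), nestin (NES) and synemin (SYNM). They were taken by symbol from a list, and all 10 had a row in both deposited tables, of 58051 gene rows in each. RNA was sequenced from HAP1, an adherent near-haploid human cell line derived from the leukemia line KBM-7, in 10 libraries. Paired-end libraries came from wild type HAP1 (n = 3), RBM4 knockout clone 1 (n = 3) and RBM4 knockout clone 2 (n = 2), and single-end libraries from 1 wild type and 1 RBM4 knockout sample. RBM4 encodes an RNA-binding protein that acts in splicing and translation. Each knockout clone is a single clone of HAP1, so a difference between a clone and wild type holds both the knockout and whatever else sets that clone apart, and these cannot be told apart. The labels do not say which clone gave the single-end knockout library.

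Intermediate filaments are the ropelike part of the cytoskeleton that gives cells mechanical strength. Keratins form obligate pairs of a type I and a type II chain, and KRT8 with KRT18 is the pair of simple epithelia and of the early embryo. Vimentin forms filaments by itself in mesenchymal and many cultured cells, whereas nestin, known from neural progenitors, and synemin, a linker protein of muscle, need vimentin or a similar partner to assemble. Keratins that lack a partner are degraded as proteins, which RNA levels do not show.

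RBM4 RNA itself lay between 78.7 and 79.8 CPM (counts-per-million) in wild type, between 22.3 and 24.5 CPM in the clone 1 libraries and at 25.3 and 25.8 CPM in those of clone 2, so every library had the RBM4 level its label implies, with RBM4 RNA reduced and not absent. Total counts of the paired-end libraries ranged from 33192095 to 55617525. RNA levels were more strongly tied to gene GC content in some libraries than in others: the rank correlation across features between a library's deviation from the mean level and GC content came to -0.55, -0.47 and -0.36 for the wild type libraries, to 0.38, -0.08 and 0.54 for those of clone 1, and to 0.52 and -0.10 for those of clone 2. Features are not independent replicates, so these values describe the libraries and carry no p. Sample numbers in the column names put the 3 wild type libraries and replicate 1 of each clone at numbers up to 5, and the other knockout libraries at 11 to 13, with no wild type among them. Both features are given below beside the results they touch.

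Promoter sequences were in the RefSeq table used here (GRCh38.p14) for 5 of the 10 genes: NES, VIM, KRT8, SYNM and KRT10. Shown here, from 250 bases before to 50 bases after the start site, are the windows of NES and SYNM, 2 genes whose RNA was higher in both clones, and of KRT10, whose RNA level did not pass the test in either. Their start sites lie 10, 45 and 19 bases from the start of the GENCODE 29 principal transcript. For VIM and KRT8 these starts lie 1037 and 23355 bases apart, and their windows are not printed. NES is at chr1:156677358-156677657 on the minus strand, SYNM at chr15:99104830-99105129 on the plus strand and KRT10 at chr17:40822565-40822864 on the minus strand. Each is written 5′ to 3′ along the gene, and capitals mark the letters GGGCGG of a GC box on either strand, overlapping matches included.
NES: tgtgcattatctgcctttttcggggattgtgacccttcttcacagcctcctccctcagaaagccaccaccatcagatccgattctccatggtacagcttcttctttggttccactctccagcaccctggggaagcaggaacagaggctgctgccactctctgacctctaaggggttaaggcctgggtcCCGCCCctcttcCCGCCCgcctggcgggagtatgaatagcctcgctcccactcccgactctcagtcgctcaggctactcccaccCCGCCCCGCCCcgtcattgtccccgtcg
SYNM: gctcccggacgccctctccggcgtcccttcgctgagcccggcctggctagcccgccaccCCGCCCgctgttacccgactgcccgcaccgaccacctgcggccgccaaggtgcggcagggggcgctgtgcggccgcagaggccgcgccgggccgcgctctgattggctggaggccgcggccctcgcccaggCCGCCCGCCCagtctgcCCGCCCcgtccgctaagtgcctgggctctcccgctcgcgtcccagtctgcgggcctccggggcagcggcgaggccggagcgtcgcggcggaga
KRT10: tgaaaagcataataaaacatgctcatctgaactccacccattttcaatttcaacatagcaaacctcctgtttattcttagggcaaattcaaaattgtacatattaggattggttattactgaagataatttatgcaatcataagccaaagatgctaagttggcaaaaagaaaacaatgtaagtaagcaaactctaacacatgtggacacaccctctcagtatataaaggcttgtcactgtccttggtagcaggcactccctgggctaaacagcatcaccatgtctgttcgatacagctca
The NES window held 4 GC boxes and the SYNM window 4, and the KRT10 window held none. The windows set aside, of VIM and KRT8, held 1 and 0. Of 35116 promoter windows of the same length, 45.0% held at least 1 GC box and 9.06% held 4 or more. The motif TATAAA, searched on both strands, was found once in the KRT10 window and in neither of the others, against 11.5% of all windows. The AP-1 motif TGANTCA was in none of the printed windows, against 7.71% of all. The E-box CANNTG occurred 3 times in the KRT10 window, once in that of SYNM and in that of NES not at all, against 68.7% of all. GC content of the window was 60.3% for NES, 79.0% for SYNM and 37.7% for KRT10. These are matches of letters and no measure of binding.

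Per kilobase of merged exon length, VIM RNA was the most abundant of the 10 in every library, its mean being 90.4 CPM per kilobase in wild type, against 76.9 for clone 1 and 80.6 for clone 2. In wild type it was followed by NES at 12.2 and KRT18 at 11.9 CPM per kilobase, whose ranges overlapped, then by KRT10 at 8.59, SYNM at 3.62, KRT8 at 0.596 and KRT17 at 0.0279. The order was the same in clone 2, where NES stood at 19.8 and KRT18 at 17.6 CPM per kilobase without overlap. In clone 1 KRT18 stood at 16.0 and NES at 14.4, again with overlapping ranges. This order depends on the length used. Per kilobase of the principal transcript, KRT18 came after VIM in every group with no overlap with NES, at 26.9 against 12.2 CPM per kilobase in wild type, 36.2 against 14.4 for clone 1 and 39.9 against 19.8 for clone 2. On that length SYNM (3.83) was above KRT8 (2.34) in wild type, whereas in clone 2 KRT8 (8.21) was above SYNM (5.92) and overlapped KRT10 (8.22). Vimentin made up between 70.8% and 71.3% of the summed per-kilobase level of the 10 genes in wild type, between 60.4% and 65.0% in clone 1 and between 59.5% and 60.9% in clone 2, so the groups of knockout libraries lay below wild type with no overlap. On the principal transcript length these shares were 82.0% to 82.4%, 74.0% to 77.1% and 72.4% to 73.7%. KRT7, KRT19 and KRT80 did not reach the count filter of the tests, which leaves 7 of the 10 genes tested.

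**Figure D1:**
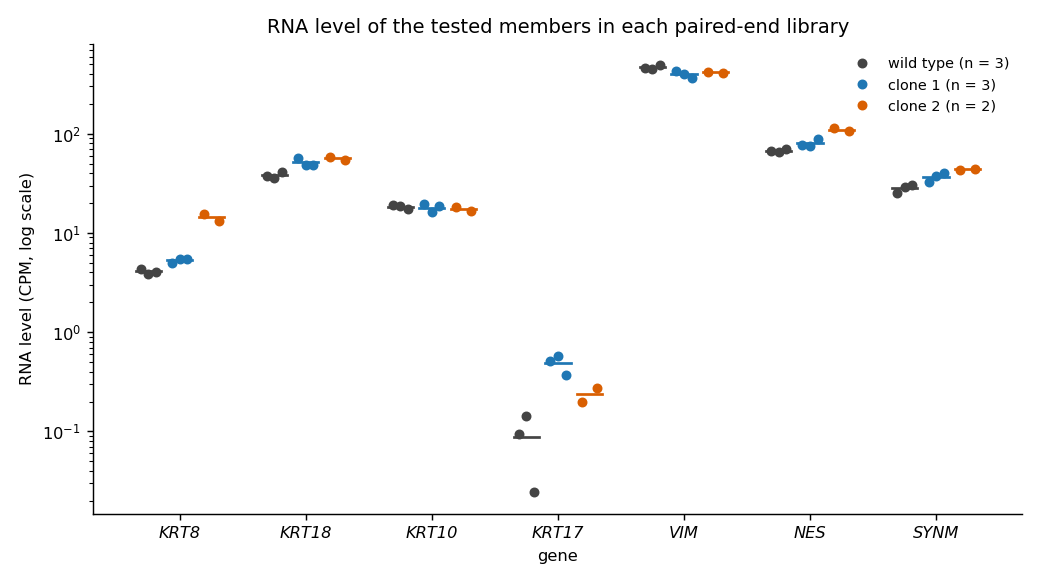
RNA level in CPM on a log scale of the 7 tested genes in each paired-end library; points are libraries, short lines are group means, with wild type in grey (n = 3), clone 1 in blue (n = 3) and clone 2 in orange (n = 2). KRT8 is near 4 CPM in wild type and above 13 CPM in both clone 2 libraries, and KRT10 overlaps between all groups.

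Between the knockout clones and wild type, KRT8, KRT18, NES and SYNM were higher in both clones, KRT17 was higher in clone 1, and VIM was lower in clone 1. The call was made with edgeR's quasi-likelihood test at a Benjamini-Hochberg adjusted p below 0.05 over 20747 features. In clone 1 it took in 6 of the 7 tested genes, of which 5 rose and 1 fell, where 16% of all features were called, 9.37% up and 6.64% down. In clone 2 it took in 4 of 7, all higher, where 10.8% of all features were called, 6.18% up and 4.59% down. For the mean of the clones it took in 6 of 7, with 5 higher and 1 lower, against 18% of all features, 9.87% up and 8.09% down. The median log2 fold change of the 7 genes was 0.38 in clone 1, 0.63 in clone 2 and 0.50 for the mean, beside medians over all features of -0.0018, 0.0102 and 0.0020. Both clones were compared with the same 3 wild type libraries, so their results are not independent of each other. Genes could pass the count filter through the group where they were high. This bears on KRT17 and, below, on KRT15, CRYAB, SFN, CLDN7 and SOX1. Their calls, also where counted as risen or fallen, are descriptions. In RNA from whole cultures, a lower level in every cell and fewer cells with the RNA cannot be told apart.

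**Figure D2:**
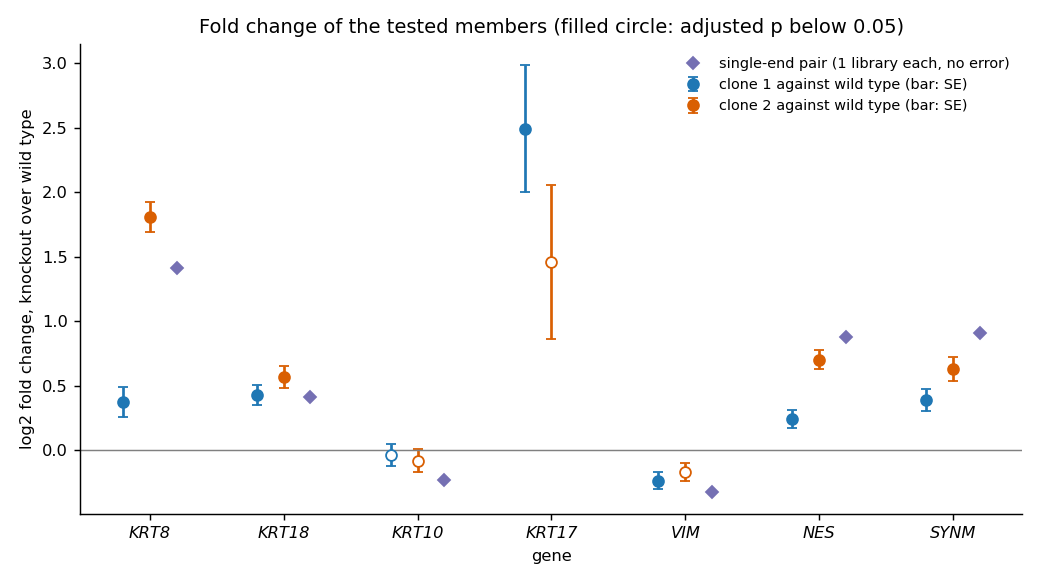
Log2 fold change of the knockout over wild type for the 7 tested genes: circles with SE bars are clone 1 and clone 2 against wild type, filled where the adjusted p was below 0.05, and diamonds are the single-end pair, 1 library each and without error. KRT8 stands at 0.38 in clone 1 and 1.81 in clone 2, and KRT10 and VIM lie at or below 0 throughout.

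KRT8, the type II chain of simple epithelia (ENSG00000170421, chr12:52897187-52949954 on the minus strand of GRCh38), was at 4.37, 3.85 and 4.07 CPM in the wild type libraries. Its level was 4.99, 5.45 and 5.50 CPM in the clone 1 libraries and reached 15.7 and 13.1 CPM in those of clone 2. Both clone 2 libraries were above all others, and clone 1 lay above wild type by a small margin without overlap. In clone 2 the log2 fold change was 1.81 (SE 0.117, adjusted p = 2.74e-07), a 3.50-fold higher level, and in clone 1 it was 0.38 (SE 0.113, adjusted p = 0.0384), or 1.30-fold. Clone 2 exceeded clone 1 by 1.43 on the log2 scale (SE 0.114, adjusted p = 4.34e-06). The call in clone 1 ended in 10 of 19 alternative fits, among them DESeq2 (adjusted p = 0.0578), a correction for GC content (log2 fold change 0.25, adjusted p = 0.146), and fits that left out any 1 wild type library or replicate 2 or 3 of clone 1, with an adjusted p of up to 0.240. The result for the mean of the clones, 1.09 (SE 0.102, adjusted p = 7.74e-06), was not called with the 5 knockout libraries as 1 group (adjusted p = 0.167), a fit in which the gap between the clones counts as spread.

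KRT18, the type I partner of KRT8 (ENSG00000111057, chr12:52948871-52952901 on the plus strand), was at 37.5, 35.8 and 41.2 CPM in the wild type libraries. Its level was 57.2, 48.4 and 48.8 CPM in the clone 1 libraries and reached 58.6 and 54.7 CPM in those of clone 2. All 5 knockout libraries were above all wild type libraries, and the clones overlapped each other. The log2 fold change was 0.43 in clone 1 (SE 0.0753, adjusted p = 0.00195) and 0.57 in clone 2 (SE 0.0829, adjusted p = 0.000502), or 1.35-fold and 1.48-fold. The difference between the clones, 0.14, did not pass the test (adjusted p = 0.699). KRT18 kept its calls against wild type in every alternative fit run. Log2 fold changes ran from 0.31 to 0.58 in clone 1, 0.47 to 0.66 in clone 2 and 0.39 to 0.60 for the mean. One such fit, restricted to the sample numbers up to 5, holds 1 library of each clone, so its spread comes from wild type alone.

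The ratio of KRT8 counts to KRT18 counts was 0.116, 0.108 and 0.0989 in the wild type libraries and 0.0872, 0.113 and 0.113 in those of clone 1. Both clone 2 libraries had a higher ratio, of 0.267 and 0.240. Clone 1 therefore overlapped wild type in this ratio and clone 2 stood above both. The genes of KRT8 and KRT18 overlap by 1084 bases on opposite strands, and the library kit kept strand, but no source used here gives the strand setting with which reads were counted. Reads from the overlap of the 2 genes could thus have been given to either or to neither.

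Both genes also have many processed copies. Rows named as KRT8 pseudogenes numbered 51, of which 32 were at 0 in all 8 libraries, and rows named as KRT18 pseudogenes numbered 67, of which 26 were at 0. The pseudogene rows held between 63.9% and 66.1% of the counts of KRT8 plus its pseudogenes in wild type, between 59.9% and 67.5% in clone 1, and 41.8% and 44.1% in clone 2, whereas for KRT18 the share was between 4.97% and 10.9% over all 8 libraries. Windows of 75 bases, the read length, from the KRT8 principal transcript were found unaltered in at least 1 pseudogene for 322 of 1681 windows (19.2%), and for KRT18 this was 87 of 1346 (6.46%). With the pseudogene rows summed into their parent, KRT8 and its copies came to 12.1, 11.4 and 11.5 CPM in wild type libraries, to 13.8, 13.6 and 16.9 CPM in those of clone 1, and to 26.9 and 23.5 CPM in those of clone 2. On that sum the log2 fold change was 1.11 in clone 2 (adjusted p = 9.69e-06), against 1.81 for the KRT8 row alone, and 0.34 in clone 1 (adjusted p = 0.0288). Clone 2 against clone 1 became 0.77 (adjusted p = 0.000703). The sum for KRT18 gave 0.38 in clone 1 and 0.53 in clone 2. The sums were chosen after the data were seen. KRT8P12 had the most counts of the KRT8 pseudogene rows, 1837 over the 8 libraries, and shares no 75-base window with the KRT8 principal transcript. KRT8P3, which shares 190 windows, had 29 counts. How many reads of the pseudogene rows came from KRT8 was not tested.

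**Figure D3:**
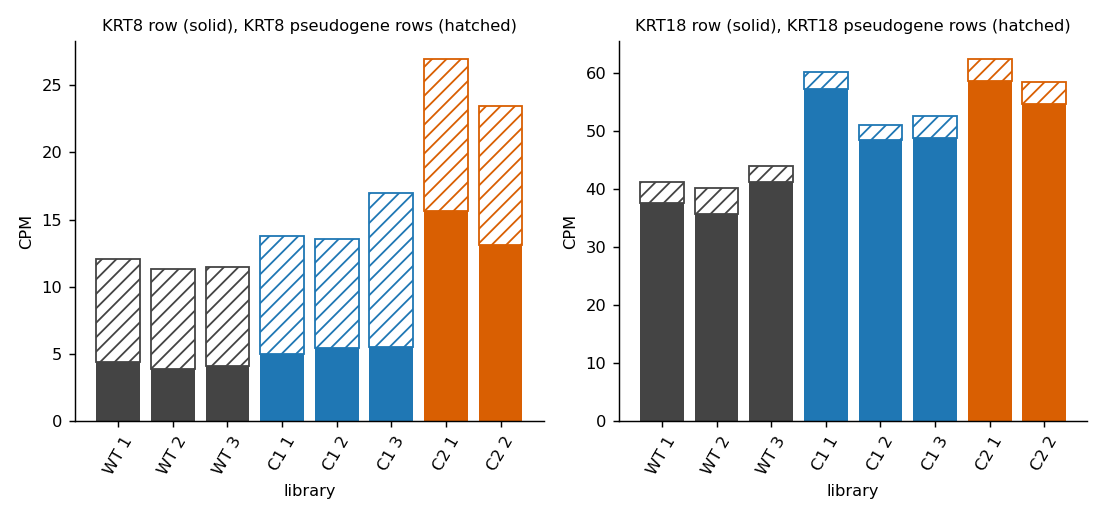
CPM of the parent row (solid) and of all its pseudogene rows together (hatched) in each paired-end library, for KRT8 on the left and KRT18 on the right; WT is wild type, C1 clone 1 and C2 clone 2, each followed by the replicate number. The solid part is under 6 CPM for KRT8 in wild type and clone 1 and above 13 CPM in clone 2, while the hatched part makes up at most 10.9% of the KRT18 bars.

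Of 12 pseudogene rows that were tested, 7 of KRT8 and 5 of KRT18, 1 was called for the mean of the clones. KRT8P12 (chr3:160565447-160569248, within KPNA4 on the opposite strand) stood at 4.20 ± 0.315 CPM (SD, n = 3) in wild type, 6.27 ± 0.881 CPM (SD, n = 3) for clone 1 and 6.25 ± 0.479 CPM (SD, n = 2) for clone 2, a log2 fold change of 0.57 (SE 0.117, adjusted p = 0.0047). In the single-end pair KRT8P12 was at 4.21 CPM in wild type and 4.24 CPM in the knockout. Its sequence was identical to the KRT8 principal transcript at 86.2% of 1461 aligned bases, and no window of 75 bases was shared between them. A like level of this row in both clones went with a KRT8 level that differed 2.70-fold between them.

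KRT17, a type I keratin of stressed and wounded epidermis (ENSG00000128422, chr17:41619441-41624842, minus strand), was near the limit of these libraries, with 4, 5 and 1 counts in the wild type libraries, 17, 32 and 15 in those of clone 1, and 8 and 13 in those of clone 2. All knockout libraries had more counts than any wild type library. Of the 75-base windows of its principal transcript, 66 of 1443 (4.57%) were also found in near-identical genes or pseudogenes, so a few of these reads may be shared. The ratio of pooled CPM to wild type was 5.87 for clone 1, with an exact 95% interval of 3.00 to 12.8, and 2.84 for clone 2, with one of 1.28 to 6.76, where the interval covers counting error only. KRT17 passed the count filter only through the clones, where it was high, so its calls are given as a description. The test called clone 1 (log2 fold change 2.49, SE 0.492, adjusted p = 0.00414) but not clone 2 (1.46, SE 0.597, adjusted p = 0.149). The difference between them, -1.03, did not pass the test (adjusted p = 0.479). Over the mean of the clones, 1.98 (adjusted p = 0.0134), the call ended in 4 of 20 alternative fits: without replicate 1 (adjusted p = 0.0542) or replicate 3 (0.0614) of wild type, in the sample numbers up to 5 alone (0.0713), and with the GC correction and a sample-number term together (0.0633).

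KRT10, a type I keratin of differentiated epidermis (ENSG00000186395, chr17:40818117-40822595, minus strand), was the second keratin by level per kilobase. Its level was 19.0, 18.7 and 17.6 CPM in the wild type libraries, against 19.5, 16.1 and 18.5 CPM in those of clone 1 and 18.2 and 16.7 CPM in those of clone 2. All 3 groups overlapped. For the clones together the mean log2 fold change was -0.0565 (SE 0.0743, adjusted p = 0.653), and in neither clone did it pass the test. KRT10-AS1, which overlaps KRT10 by 3490 bases on the other strand, had between 247 and 534 counts and a log2 fold change of 0.43 (adjusted p = 0.0153).

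The remaining 3 keratins were at or near 0. KRT7, a type II keratin of ducts and glands (ENSG00000135480), had 0 counts in all wild type libraries. It had 3, 7 and 5 counts in those of clone 1, and 1 and 0 in those of clone 2. Its pooled level in clone 1, 0.116 CPM, was 4.59-fold above a floor of 3 counts over the wild type group, or 0.0253 CPM. That fold leaves out counting error in clone 1. The exact 95% interval was 0.0650 to 0.192 CPM in clone 1 and reached up to 0.0311 CPM in wild type. A fit without the count filter gave KRT7 an adjusted p of 0.0117 in clone 1, a description, since nearly all its counts lie there. KRT80 (ENSG00000167767) had 0 counts in all wild type libraries too, with 0, 2 and 4 in those of clone 1 and 1 and 1 in those of clone 2. With 6 counts over clone 1, its pooled level there had an exact 95% interval of 0.0171 to 0.101 CPM, which reaches below the wild type floor, so no fold is given. It was not called in the fit without the filter (adjusted p = 0.184). KRT19 (ENSG00000171345), the smallest type I keratin of simple epithelia, had 1 count in wild type replicate 1 and 0 in the other libraries. For its count of 0 over a group, the exact 95% interval reached up to 0.0286 CPM for clone 1 and up to 0.0422 CPM for clone 2.

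The level of VIM RNA (ENSG00000026025, chr10:17228259-17237593, plus strand) was 457, 453 and 489 CPM in the wild type libraries, against 428, 401 and 361 CPM in those of clone 1 and 418 and 414 CPM in those of clone 2. All knockout libraries were below all wild type libraries. VIM fell in clone 1 by 0.23 on the log2 scale (SE 0.0637, adjusted p = 0.0245), 1.18-fold lower. This call ended in 6 of 19 alternative fits, with an adjusted p of up to 0.216, among them those without any 1 wild type library, with a term for the sample number (0.109) and in the sample numbers up to 5 alone. In clone 2 the value was -0.16 (SE 0.0714, adjusted p = 0.177), which did not pass the test, and the clones differed by 0.0680 (adjusted p = 0.867). The result for the mean of the clones, -0.20 (SE 0.0571, adjusted p = 0.0279), lost its call in 8 of 20 alternative fits, with an adjusted p of up to 0.144, the same ones and those without either clone 2 library. VIM-AS1, which overlaps VIM on the other strand, had between 65 and 141 counts. The summed CPM of the 7 keratins relative to VIM ranged from 0.129 to 0.134 in the wild type libraries, from 0.176 to 0.203 in those of clone 1 and from 0.205 to 0.222 in those of clone 2.

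NES (ENSG00000132688, chr1:156668763-156677397, minus strand) was at 67.5, 65.2 and 70.3 CPM in the wild type libraries. Clone 1 libraries had 76.6, 75.2 and 88.7 CPM, and clone 2 libraries 114 and 106 CPM. The 3 groups did not overlap. In clone 2 NES rose by 0.70 on the log2 scale (SE 0.0741, adjusted p = 2.94e-05), 1.63-fold, and in clone 1 by 0.24 (SE 0.0675, adjusted p = 0.0257), 1.18-fold. Clone 2 exceeded clone 1 by 0.46 (SE 0.0740, adjusted p = 0.00325). G and C make up 59.3% of the longest NES transcript, and with the GC correction its value in clone 1 became 0.0897 (adjusted p = 0.265), while in clone 2 it became 0.58 and stayed called (adjusted p = 1.22e-05). The call in clone 1 ended in 8 of 19 fits in all, also without wild type replicate 1 (adjusted p = 0.101) or 2 (0.123) or clone 1 replicate 3 (0.0738). With the knockout libraries as 1 group, the mean was not called (adjusted p = 0.0888).

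SYNM (ENSG00000182253, chr15:99098217-99135593, plus strand) was at 25.5, 28.8 and 30.7 CPM in the wild type libraries. Clone 1 libraries had 32.7, 37.9 and 40.5 CPM, and clone 2 libraries 43.2 and 44.4 CPM. These groups too were separate, in the order wild type, clone 1, clone 2. The log2 fold change was 0.39 in clone 1 (SE 0.0843, adjusted p = 0.00762) and 0.63 in clone 2 (SE 0.0925, adjusted p = 0.00061), or 1.31-fold and 1.55-fold. The clones differed by 0.24 without passing the test (adjusted p = 0.362), although 3 alternative fits called that difference: the replicate number as a block (adjusted p = 0.0328), that block with the GC correction (0.0139), and the GC correction with a sample-number term (0.0355). In clone 1 the call ended in 3 of 19 alternative fits: without wild type replicate 1 (adjusted p = 0.0503), in the sample numbers up to 5 alone (0.168), and with the GC correction and a sample-number term (0.157).

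Between the clones, KRT8 and NES were the 2 called genes of the 7, both higher in clone 2, where 2.09% of all features were called, 1.1% up and 0.993% down. The median log2 difference of the 7 genes was 0.14, beside -0.0013 over all features. Groups did not overlap for 6 of the 7 genes in clone 1 against wild type, where this held for 35% of all features, for 6 in clone 2 (45%), for 6 with the knockout libraries together (25.3%), and for 4 between the clones (22.8%).

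**Figure D4:**
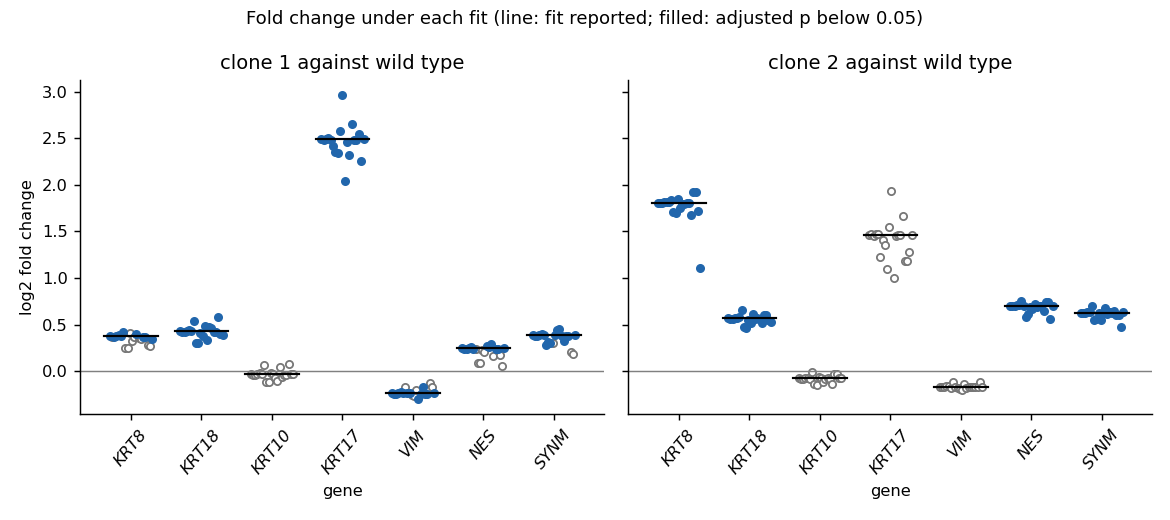
Log2 fold change of each tested gene against wild type in clone 1 (left) and clone 2 (right) under each fit that gave a value; points are fits, filled where the adjusted p was below 0.05, and the black line is the value reported. KRT18 is filled in every fit of both panels, and KRT8 and NES are filled in every fit of clone 2 but open in 10 and 8 fits of clone 1.

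The single-end pair has 1 library a group and no test. In it KRT8 was at 4.26 CPM in wild type and 11.4 CPM in the knockout, a 2.66-fold higher value. NES was at 65.8 and 121 CPM (1.84-fold higher), SYNM at 21.1 and 39.6 CPM (1.88-fold higher) and KRT18 at 27.2 and 36.3 CPM (1.33-fold higher). These 4 had the same direction as in both clones, and 3 of them, KRT8, NES and SYNM, were past 1.5-fold, as were 13.1% of the 22254 features with enough counts, 9.61% higher and 3.5% lower. VIM was at 323 and 258 CPM, 1.25-fold lower, and KRT10 at 14.8 and 12.6 CPM. KRT7 had 0 and 7 counts, KRT17 0 and 1, KRT80 1 and 0, and KRT19 none in either library.

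Among other keratins, little RNA was counted. Of 23 other type II keratins, 17 had no count in any library and none was tested. Of 25 other type I keratins, 18 had no count and 1 was tested: KRT15, a keratin of basal epidermal cells, with 2 counts over the wild type group, both in 1 library, 70 over clone 1 and 21 over clone 2. KRT15 passed the count filter only through the clones, where it was high, so its call is given as a description: the log2 fold change for the mean of the clones was 4.20, and between 3.64 and 6.97 with single libraries left out. The ratio of its pooled CPM to wild type was 32.1 for clone 1, with an exact interval of 8.57 to 270, and 14.2 for clone 2, with one of 3.47 to 125. Markers of keratinocytes, the main cells of the epidermis, had a summed level of at most 0.0950 CPM in the wild type libraries, 0.247 CPM in those of clone 1 and 0.0638 CPM in those of clone 2. Of the 11 marker rows found, 8 had no count, among them KRT1, KRT2 and KRT5.

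Other intermediate filament genes numbered 14, of which 8 were tested, 2 rose and none fell for the mean of the clones. These were LMNA, which encodes the nuclear lamins A and C (212 ± 9.18 CPM in wild type, 291 ± 16.2 in clone 1, 286 ± 17.8 in clone 2, SD, n = 3, 3 and 2; log2 fold change 0.44, adjusted p = 9.38e-05), and PRPH, the peripheral neuron filament peripherin (0.69, adjusted p = 0.031), whose call ended in 9 of 20 alternative fits. The median of the 8 was -0.0112. INA, the neuronal filament internexin alpha, moved in opposite directions in the clones: at 26.8 ± 0.0453 CPM in wild type, it rose by 0.37 in clone 1 (34.6 ± 1.80 CPM, adjusted p = 0.00288) and fell by 0.39 in clone 2 (20.5 ± 2.29 CPM, adjusted p = 0.0059). Clone 2 was below clone 1 by 0.76 (adjusted p = 6.19e-05), and the mean over both was -0.0103. INA was singled out after its values were seen, and its call in clone 2 ended without clone 2 replicate 2 (adjusted p = 0.0888). Among 20 genes of filament linkers and desmosomes, 13 were tested, 5 rose and 4 fell, with a median of 0.12. The plakin PPL (periplakin, which ties keratin filaments to the cell edge) rose by 1.25 (SE 0.117, adjusted p = 7.96e-06), and the plakins EPPK1, PLEC and MACF1 rose by 0.67, 0.38 and 0.25. JUP rose by 0.18. The desmosomal cadherins DSC2 and DSG2 fell by 0.84 and 0.28, and the plakophilins PKP2 and PKP4 by 0.31 and 0.20. The calls of JUP, MACF1 and PKP2 ended in 9, 6 and 2 of 20 alternative fits. PLEC, MACF1, JUP, PKP2 and PKP4 are named beyond the naming rule, as the remaining called genes of the list.

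Of 13 proteins that bind keratins or organise filaments, 11 were tested, 3 rose and none fell, with a median of 0.12. The small heat shock protein CRYAB stood at 0.158 ± 0.0509 CPM in wild type, 0.936 ± 0.266 in clone 1 and 1.23 ± 0.482 in clone 2 (SD, n = 3, 3 and 2), a log2 fold change of 2.74 (adjusted p = 0.000167). CRYAB passed the count filter through the clones, where it was high, so its call is a description. FAM83H, which recruits casein kinase to keratin filaments, rose by 0.43 (adjusted p = 0.00244), and SFN, a 14-3-3 protein that binds keratins, by 1.26 (adjusted p = 0.041, named beyond the rule, and lost in 12 of 20 alternative fits). Among 18 regulators of keratin genes, 16 were tested, 4 rose and 2 fell, with a median of 0.0243. The AP-1 subunits JUN and FOSL2 rose by 1.60 (SE 0.127, adjusted p = 1.79e-06) and 1.37 (SE 0.136, adjusted p = 1.28e-05). Other AP-1 subunits of the list, FOS, JUNB and FOSL1, were not called, at 0.36, 0.19 and -0.11 (adjusted p = 0.246, 0.144 and 0.417). ETS1 fell by 0.87 and TRPS1 by 0.26, and KLF4 and KLF5 rose by 0.53 and 0.18. FOS, JUNB, FOSL1, KLF4 and KLF5 are named beyond the rule. The calls of KLF4, KLF5 and TRPS1 ended in 6, 5 and 1 of 20 alternative fits.

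Epithelial markers numbered 20, of which 13 were tested, 4 rose and none fell, with a median of 0.36. SPINT1, an inhibitor of membrane serine proteases, rose by 0.40 and TJP3, a tight junction scaffold, by 1.13, and the claudins CLDN3 and CLDN7, named beyond the rule, by 0.54 and 1.36, with calls that ended in 3 and 11 of 20 alternative fits. EPCAM, an epithelial adhesion molecule singled out after its values were seen, stood at 1.57 ± 0.342 CPM in wild type, 2.30 ± 0.175 in clone 1 and 0.963 ± 0.249 in clone 2 (SD, n = 3, 3 and 2). Against wild type neither clone passed the test, and clone 2 was below clone 1 by 1.27 on the log2 scale (adjusted p = 0.0094), a call that ended without clone 2 replicate 2 (0.171) and in the sample numbers up to 5 alone (0.291). The defining marker CDH1 (E-cadherin) had 0 counts in wild type and 1 over each clone, and was not tested. Of 20 mesenchymal markers, 12 were tested, 4 rose and 4 fell, with a median of 0.0426. The matrix genes SPARC and COL1A1 rose by 2.04 and 0.76, and TAGLN and S100A4, named beyond the rule, by 0.92 and 0.77. The transcription factors ZEB1 and ZEB2 fell by 0.33 and 0.38, and FN1 and CDH2, also beyond the rule, by 0.30 and 0.19. The calls of ZEB1, FN1 and CDH2 ended in 3, 2 and 6 of 20 alternative fits. Their part in the levels of the keratins and of VIM was not tested.

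Among 8 neural progenitor markers, the cells nestin is best known from, 4 were tested, none rose and 1 fell. This was SOX1, at 0.637 ± 0.175 CPM in wild type, 0.0142 ± 0.0128 in clone 1 and 0.112 ± 0.0527 in clone 2 (SD, n = 3, 3 and 2). SOX1 passed the count filter through wild type, where it was high, so its call is a description. Blood cell markers, the lineage of KBM-7, numbered 12, of which 2 were tested: GATA2 rose by 0.29, a call that ended in 2 of 20 alternative fits, and KIT fell by 0.90. Over all features, 9.87% rose and 8.09% fell in the same comparison, the background for the counts over lists.

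**Figure D5:**
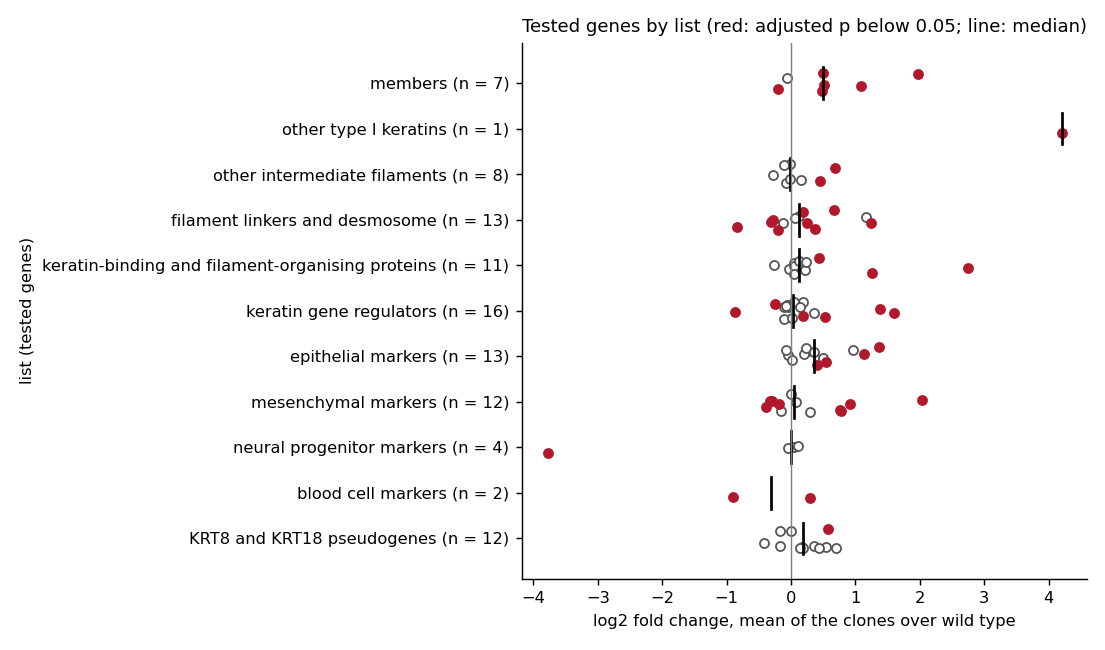
Log2 fold change of the mean of the clones over wild type for each tested gene, by list, with the 7 tested filament genes on the top line; points are genes, red where the adjusted p was below 0.05, and black lines are medians. The top line has its median at 0.50, and the medians of the linker, keratin-binding, regulator and mesenchymal lists lie between 0.0243 and 0.12. Epithelial markers have theirs at 0.36, pseudogenes at 0.18, other intermediate filaments at -0.0112, neural progenitor markers at -0.0027 and blood cell markers at -0.31. The other type I keratins hold 1 tested gene, at 4.20.

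The genes whose log2 CPM followed a member most closely over the 8 paired-end libraries, among 13490 genes, are given as a description, since 2 or 3 groups of libraries set most of each profile. For KRT8 they were BMP7 (Pearson r = 0.995), a growth factor at 3.61, 6.95 and 52.9 CPM in wild type, clone 1 and clone 2, then S100A11 (0.990) at 3.35, 4.24 and 23.5 CPM, and ARHGAP44 (0.986). For KRT18 they were ENSG00000198211 (0.994), the neuronal tubulin gene TUBB3 (0.991) and FEZF1 (0.980). ENSG00000198211 and TUBB3 had nearly equal levels in every group, at 68.7 and 68.7 CPM in wild type, so they cannot be taken as 2 separate profiles. Whether their rows hold the same reads was not tested. For VIM they were NETO2 (0.986), the splicing factor gene TRA2B (0.982) and RNF2 (0.981). KRT8 itself had r = 0.959 with NES and 0.735 with KRT18, so over these libraries the KRT8 profile was closer to that of NES than to that of its filament partner.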

How the data were processed

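RNA-seq counts of HAP1 cells were analysed from 2 deposited tables, 1 for the 8 paired-end and 1 for the 2 single-end libraries. The deposited values are whole-number counts per gene and per repeat subfamily, not normalized, as the values themselves show. Alignment used STAR 2.5.2a with the hg38 (GRCh38) build, per the submitters' processing notes, and the names of the tables give TEToolkit as the counter. Its version, strand setting, handling of reads with several alignments and annotation are given by no source used here. The kit was one for stranded mRNA libraries, per the labels' protocols.

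Counts of all features were filtered with filterByExpr, which left 20747 (19683 genes and 1064 repeats), scaled with TMM and tested with edgeR 4.0.16 (quasi-likelihood F test, robust, 1 mean per group, R 4.3.3). Adjustment was by Benjamini-Hochberg over every feature tested, and calls were made below 0.05. CPM use TMM-scaled library sizes. SE values are the size of the log2 fold change over the root of F. Single-end log2 ratios use a prior count of 2 and need 20 counts or more over both libraries. Gene positions, lengths and GC content came from GENCODE 29, and a GC value was at hand for 94.2% of features. Total counts ranged from 33192095 to 55617525 per paired-end library, and were 44140706 and 41265510 in the single-end pair.

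Alternatives were DESeq2 1.42.0, other scalings, no filter, the replicate number as a block, a term for the sample-number block, a GC correction, each library left out and the knockout libraries as 1 group. The first sample-number block alone, the GC correction with the sample-number term, the pseudogene sums and the principal transcript length were added after seeing the data. That first block holds 1 library of each clone, so the spread in its fit comes from wild type alone. All members and, per list, up to 2 called genes in each direction by p were named, plus RBM4 and the 3 genes most like KRT8, KRT18 and VIM. Members and lists were chosen with earlier results of these data known. Nothing in the labels says that replicates were separate cultures, and the p-values therefore reflect a spread between libraries that may be technical.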

Additional observations from a re-analysis of the deposited data

Results flagged for a closer look

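Between the 2 knockout clones, some effects differed by edgeR's test of the difference itself, clone 2 against clone 1. KRT8 was higher in clone 2 by 1.43 on the log2 scale (SE 0.114, adjusted p = 4.34e-06, with 0.38 in clone 1 and 1.81 in clone 2 against wild type), and both clone 2 libraries were above all 3 of clone 1. NES was higher in clone 2 by 0.46 (adjusted p = 0.00325). Of the genes of the lists, SPARC was higher in clone 2 by 0.68 (adjusted p = 6.24e-05) and COL1A1 by 0.41 (adjusted p = 0.0247). KIT differed by -0.47 (adjusted p = 0.0387), its level being lower in clone 2. Others lower in clone 2 than in clone 1 were THY1 (-2.77, adjusted p = 0.00333), EPCAM (-1.27, adjusted p = 0.0094), INA (-0.76, adjusted p = 6.19e-05) and PAX6 (-0.44, adjusted p = 0.0337), and CDH2 was higher (0.31, adjusted p = 0.0458). The calls of KIT, CDH2, PAX6, COL1A1, THY1 and EPCAM ended in 9, 8, 7, 4, 2 and 2 of 19 alternative fits, each of them without clone 2 replicate 2, and those of SPARC and INA in none.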

How the results depend on the processing

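In clone 2 the count of called members was 4 in all 19 alternatives. In clone 1 it was 6 as reported and 7 without the count filter. It was 4 with DESeq2, with the sample-number term, with the GC correction, and with that correction and the replicate block. With the GC correction and the sample-number term together it was 2. Leaving out single libraries gave between 2 and 6 called members in clone 1, the lowest without wild type replicate 1 (without replicate 2 it was 3), 4 in clone 2, 4 to 6 for the mean and 2 between the clones. Called features then numbered 1605 to 3229 in clone 1, 1033 to 2747 in clone 2, 1847 to 4251 for the mean and 224 to 418 between the clones. Between the clones 434 features were called as reported, 688 without the count filter, 224 in the sample numbers up to 5 and 775 with the GC correction and the sample-number term. As reported, called features numbered 3321 in clone 1, 2236 in clone 2 and 3725 for the mean. Without clone 1 replicate 1 the number was higher in clone 2, at 2747, and for the mean, at 4251. Leaving out a library also leaves fewer samples. The cause of these shifts was not tested.

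KRT10, not called in any fit, changed sign in clone 1 with the sample-number term (0.0646) and in the sample numbers up to 5 (0.0816), and for the mean with the sample-number term (0.0305) and in the sample numbers up to 5 (0.0263). Leaving out single libraries gave KRT10 values from -0.105 to 0.0429 in clone 1, the highest without clone 1 replicate 2, and from -0.121 to 0.0154 between the clones, above 0 without clone 1 replicate 1 or clone 2 replicate 2. VIM between the clones was -0.0425 in the sample numbers up to 5. CDH2 in clone 2 lay between -0.132 and 0.0460 with single libraries left out, above 0 without clone 2 replicate 1. The cause was not tested.

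Replicate numbers did not pair wild type with the clones: the correlation of deviations between same-numbered libraries ran from -0.394 to 0.137 there. Between the clones it was 0.514 for replicate 1 and 0.514 for replicate 2, pairs that also share a block of sample numbers. With 2 libraries in clone 2, these values are not independent, and number and block cannot be told apart. With the replicate number as a block, 6 members were called in clone 1, 4 in clone 2, 6 for the mean and 3 between the clones. KRT7, KRT19 and KRT80 lay at or under 15 counts in any group, so depth limits what can be said of them, and intervals cover counting error only.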
